A study of Mus musculus with 6 samples.

Results

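The clustered replication-dependent histone genes were followed through deletion of Dicer, the RNase that cuts microRNA precursors, in mouse EpiSCs. These epiblast stem cells are a primed type of pluripotent cell, grown from embryos after implantation. Members were the probe sets of Affymetrix mouse gene arrays that name exactly 1 symbol beginning with Hist1h, Hist2h, Hist3h or Hist4h, with the brightest probe set kept where a symbol had several. This gave 31 genes of the 20193 tested, of which 5 encode linker histone H1, 6 H2A, 10 H2B, 3 H3 and 7 H4. By current RefSeq names 24 of the 31 lie in the large Hist1 cluster on chromosome 13 and the other 7 belong to the smaller Hist2, Hist3 and Hist4 groups. The labels give 2 groups. Dicer -/- EpiSCs had been treated with 0.3 µM 4-OH-tamoxifen for 3 days. After 2 further drug-free days their RNA was extracted, at day 5. Dicer fx/fx EpiSCs carried the floxed alleles and were plated and split in parallel, without tamoxifen. All cells grew in 20 ng/ml Activin and 12 ng/ml bFGF. Experiments 18, 19 and 20 each supplied 1 sample of either kind, 6 arrays in all. Loss of Dicer, exposure to the drug and action of the recombinase cannot be told apart in these groups, and the source of the recombinase and the number of clones behind the line are not given in the sources used here.

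Histones are the proteins around which DNA is wound. H2A, H2B, H3 and H4 form the core of the nucleosome and H1 binds the linker DNA between cores. Most of this protein is supplied during S phase by genes that lie in clusters, lack introns and give mRNAs that end in a conserved stem-loop in place of a poly(A) tail. The stem-loop binding protein SLBP carries these mRNAs through processing, translation and decay, and the coactivator NPAT drives the genes after phosphorylation by cyclin E and CDK2. Pluripotent cells spend much of their short cycle in S phase. Outside S phase the replacement histones, made largely from ordinary polyadenylated mRNAs, fill the same places.

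The deleted gene followed its labels. Dicer1 had array intensities of 602, 553 and 645 in Dicer -/- cells of experiments 18, 19 and 20, against 1836, 2079 and 2098 in the Dicer fx/fx cells, a log2 difference of -1.74 ± 0.09 (limma adjusted p = 0.045, and 0.067 with the experiment as a block). EpiSC identity was checked with 8 markers of primed cells, whose summed intensity was 44048, 47227 and 34519 in Dicer -/- cells and 37478, 42069 and 49353 in Dicer fx/fx cells of experiments 18, 19 and 20. In experiment 20 7 of the 8 were lower in Dicer -/- cells, with a median difference of -0.52 (log2), and among them Nanog had 1915 in Dicer -/- cells against 4518 in Dicer fx/fx cells. The factor Pou5f1 lay between 6268 and 7636 in Dicer -/- samples and between 6348 and 7477 in Dicer fx/fx samples. The ES cell marker Zfp42 was dim, between 61.0 and 66.0 in Dicer -/- and between 66.0 and 76.3 in Dicer fx/fx samples. Of 5 ES cell markers measured 1, Klf4, was above the median level of all genes. It lay between 340 and 629 in Dicer -/- and between 351 and 838 in Dicer fx/fx samples. All 5 had a lower mean in Dicer -/- samples, and 0 passed. The libraries of experiment 20 stood apart in both groups. The summed intensity of 6 of 6 primitive streak and endoderm markers was 2723, 3646 and 20389 in Dicer -/- cells and 2046, 2369 and 20366 in Dicer fx/fx cells of experiments 18, 19 and 20. The similar sums in experiment 20 hid opposite differences, with 3 markers higher and 3 lower in Dicer -/- cells. The streak gene T had 11797 in Dicer -/- cells against 7004 in Dicer fx/fx cells, Foxa2 2529 against 1944 and Sox17 1315 against 1110. Mixl1 had 1335 against 3673, Eomes 2146 against 3973 and Gsc 1268 against 2662. T was higher in Dicer -/- cells in 3 of 3 experiments, by 1.54, 2.15 and 0.75 (log2), and so were Foxa2 and Sox17. Since these were bulk samples, fewer cells of a type and less RNA per cell cannot be told apart. Values by experiment are therefore given for the histone genes described in detail, and the part of these marker differences in the histone results was not tested.

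Across the 3 experiments the histone genes showed no change that passed the test. Differences are given as log2 intensity of Dicer -/- minus Dicer fx/fx, with the SE of the limma fit over all genes (n = 3 arrays per group). This SE is from the fit without the experiment as a block unless stated. Of the 31 members 0 rose and 0 fell at a limma adjusted p under 0.05, where 0.0% of all genes rose and 0.00495%, which is Dicer1, fell. At an unadjusted limma p under 0.05 the members counted 0, against 6.0% of all genes. With the experiment as a block 1 member, Hist2h3c2-ps, was under that unadjusted level, against 17.1% of all genes, and again 0 passed. In 31 of 31 members the intensities of the groups overlapped, where 13.2% of all genes had groups that did not. The mean differences ran from -0.20 to 0.56 with a median of 0.05, beside a median of -0.04 over all genes. The 95% interval of the mean difference lay within 1.5-fold either way for 22 of 31 members, and for 26 with the experiment as a block. A two-sided exact permutation test of 3 arrays against 3 can reach p = 0.1 at best, and the lowest value among the members was 0.2.

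**Figure D1:**
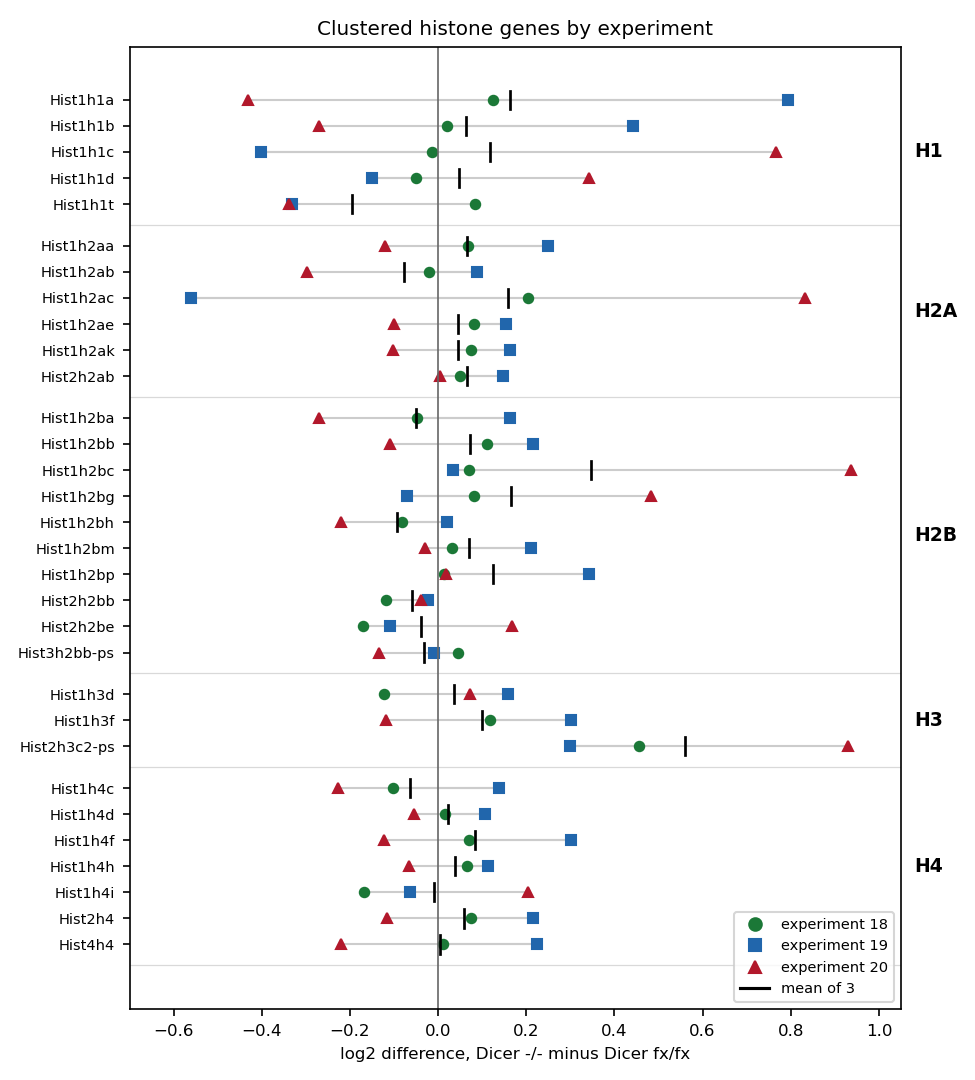
Log2 difference of Dicer -/- minus Dicer fx/fx (x axis) for the 31 histone genes (rows, grouped by histone type), with a circle for experiment 18, a square for 19, a triangle for 20 and a black bar for their mean. Most bars sit close to 0 while squares and triangles fall on opposite sides, and Hist2h3c2-ps is the member with its 3 points farthest to the right together.

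The individual experiments moved more than their mean. Over the 31 genes the medians for experiments 18, 19 and 20 were 0.05, 0.15 and -0.10, beside -0.02, -0.05 and -0.03 over all genes. In experiment 18 21 members were higher in Dicer -/- cells (67.7%, against 44.7% of all genes) and 10 lower (against 55.3%). In experiment 19 22 were higher (71.0%, against 38.5%) and 9 lower (against 61.5%). In experiment 20 11 were higher (35.5%, against 42.5%) and 20 lower (64.5%, against 57.4%), which is near the share of all genes. Only 4 members were higher in all 3 experiments (Hist1h2bc, Hist1h2bp, Hist2h2ab and Hist2h3c2-ps), which is 12.9% of them against 15.2% of all genes. The count lower in all 3 was 1 member, Hist2h2bb, or 3.23% against 28.3% of all genes. These shares of all genes include many dim genes. Of the 24 members at or above the median level of all genes, 15, 18 and 8 were higher in experiments 18, 19 and 20. Of the 10097 genes at that level 5569, 4899 and 4884 were. In all 3 experiments 3 of the 24 were higher and 1 lower, against 2355 and 2186 of the 10097. The most frequent pattern, picked after the values were seen, was higher in experiment 19 and lower in experiment 20. It held for 17 members, 54.8% of them, against 18.3% of all genes. The opposite pattern held for 6 members (Hist1h1c, Hist1h1d, Hist1h2ac, Hist1h2bg, Hist2h2be and Hist1h4i), 19.4% of them against 22.3% of all genes. With 1 array of each kind per experiment, a difference between experiments has no replicate check.

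Linker histones were split in this way. Hist1h1a, which encodes H1.1, had intensities of 3832, 6665 and 5061 in Dicer -/- cells of experiments 18, 19 and 20, against 3513, 3843 and 6823 in Dicer fx/fx cells. The highest value was thus a control, that of experiment 20, and the difference was 0.13, 0.79 and -0.43 (mean 0.16 ± 0.32). Hist1h1b, which encodes H1.5 and was picked after its values were seen, had the same order of signs, at 0.02, 0.44 and -0.27. Hist1h1c, which encodes H1.2, went the other way. Its intensities were 3054, 2068 and 4559 in Dicer -/- cells, against 3085, 2729 and 2680 in Dicer fx/fx cells, so the controls were close together and the Dicer -/- samples lay on both sides of them. Its differences were -0.01, -0.40 and 0.77 (mean 0.12 ± 0.29). Hist1h1d, for H1.3, had differences of -0.05, -0.15 and 0.34. The testis linker histone gene Hist1h1t was dim, with 170 in experiment 18, 146 in 19 and 139.7 in 20 in Dicer -/- cells, against 160.5, 184 and 177 in Dicer fx/fx cells. Its mean difference of -0.20 ± 0.10 had the smallest unadjusted p of the 31 members in the fit without the block, 0.103, and a limma adjusted p of 0.84.

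**Figure D2:**
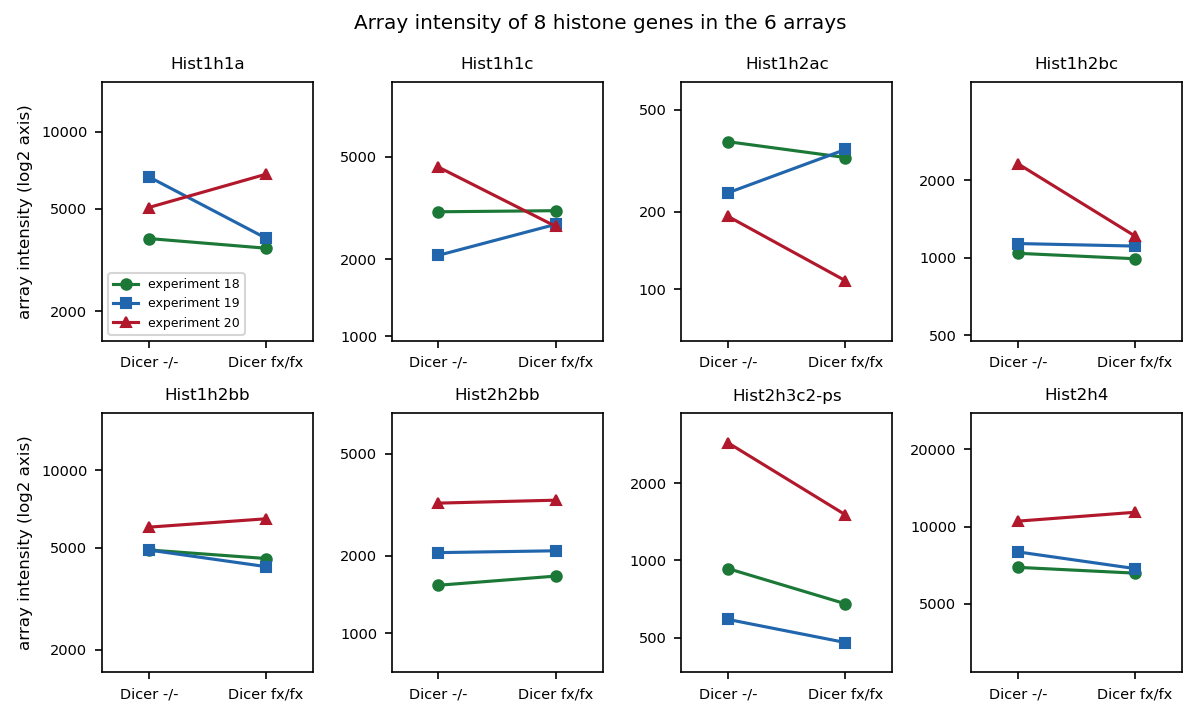
Array intensity on a log2 axis for 8 histone genes, with Dicer -/- on the left and Dicer fx/fx on the right of each panel and a line joining the samples of 1 experiment. Lines cross for Hist1h1a and Hist1h1c, while the lines of Hist2h2bb and Hist2h4 run level with experiment 20 above the others.

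H2A and H2B pair as a dimer in the nucleosome. The H2A medians were 0.07, 0.15 and -0.10 in experiments 18, 19 and 20. Hist1h2ac was the widest of them, with 375 in experiment 18, 238 in 19 and 192 in 20 in Dicer -/- cells, against 326, 350.2 and 108 in Dicer fx/fx cells. It was lowest in experiment 20 in both groups, and its differences of 0.20, -0.56 and 0.83 gave a mean of 0.16 ± 0.52. Hist2h2ab was steadier, with 10451, 11987 and 12175 in Dicer -/- cells against 10103, 10829 and 12138 in Dicer fx/fx cells, a mean difference of 0.07 ± 0.10. Hist1h2ab (-0.08 ± 0.11), Hist1h2ae (0.05 ± 0.07), Hist1h2ak (0.05 ± 0.11, picked after its values were seen) and the germline gene Hist1h2aa (0.07 ± 0.10) completed the type. The limma adjusted p of the 6 H2A genes was at least 0.965.

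Among H2B genes the medians were 0.02, 0.03 and -0.03. Hist1h2bc had 1041, 1136 and 2325 in Dicer -/- cells of experiments 18, 19 and 20, against 991, 1110.4 and 1214 in Dicer fx/fx cells. The Dicer -/- sample of experiment 20 stood alone above the rest, and the differences were 0.07, 0.03 and 0.94 (mean 0.35 ± 0.32, limma adjusted p = 0.932). A second, dim probe set of this gene, at intensities of 54.5 to 69.5, gave 0.24, -0.20 and 0.19. Hist1h2bg moved likewise, with differences of 0.08, -0.07 and 0.48. Hist1h2bb, which was picked after its values were seen, had 4891, 4889 and 6001 in Dicer -/- cells, against 4530, 4212 and 6468 in Dicer fx/fx cells, which is a difference of 0.11, 0.22 and -0.11. Hist1h2bh was at -0.09 ± 0.13, Hist1h2bm (also picked afterwards) at 0.07 ± 0.16, Hist1h2bp at 0.12 ± 0.10 and Hist1h2ba, the testis H2B gene, at -0.05 ± 0.18.

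The H2B genes of the Hist2 group differed between experiments in level far more than between groups. Hist2h2bb had 1535, 2056 and 3205 in Dicer -/- cells, against 1666, 2090.4 and 3291 in Dicer fx/fx cells. The order 18, 19, 20 was the same in both groups, and the differences were -0.12, -0.02 and -0.04. Their mean of -0.06 had an SE of 0.36 without the block and of 0.058 with it. Hist2h2be, an H2B gene known as a variant of olfactory neurons in the mouse, had 157, 165 and 337 in Dicer -/- cells and 177, 178 and 300.0 in Dicer fx/fx cells, a mean difference of -0.04 ± 0.37. Hist3h2bb-ps, which RefSeq lists as a transcribed pseudogene, was at -0.03 ± 0.13. It had 776, 795 and 611.5 in Dicer -/- cells and 752, 800 and 671 in Dicer fx/fx cells, lowest in experiment 20 in both groups. A probe set that names it together with Hist3h2ba gave 0.13, -0.02 and 0.36.

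H3 had 3 members, because most H3 probe sets name several genes. The gene written Hist2h3c2-ps on the array, which RefSeq lists as the protein-coding gene H3c15, had 929, 589 and 2870.0 in Dicer -/- cells of experiments 18, 19 and 20, against 678, 479 and 1506 in Dicer fx/fx cells. It was higher with deletion in 3 of 3 experiments, by 0.45, 0.30 and 0.93, while the level in experiment 20 was above that of the other experiments in both groups, so the groups overlapped. The mean of 0.56 was the largest of the 31 members. Its SE was 0.70 without the block (limma adjusted p = 0.956) and 0.13 with it (adjusted p = 0.193, unadjusted 0.0079). Bright probe sets that name this gene together with other histone genes had much smaller differences, between 0.02 and 0.10 in any experiment. How much of their signal comes from this gene was not tested. Hist1h3d was at 0.04 ± 0.10 and the dim Hist1h3f at 0.10 ± 0.12. Levels of near-identical histone copies are uncertain, for H3 as for the other core types, since their mRNAs can bind the same probes.

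The 7 H4 genes had mean differences from -0.06 to 0.08. With the experiment as a block the 95% intervals of all 7 lay between 0.819-fold and 1.25-fold. Hist2h4 had 6937, 7969 and 10498 in Dicer -/- cells, against 6585, 6859 and 11367 in Dicer fx/fx cells, differences of 0.08, 0.22 and -0.11. Hist4h4, the single gene of its locus, had 2126, 2421 and 2538 in Dicer -/- cells, against 2109, 2071 and 2956 in Dicer fx/fx cells. The control of experiment 20 was again the highest, and the mean difference was 0.01 ± 0.16. Hist1h4c (-0.06 ± 0.19), Hist1h4d (0.02 ± 0.12), Hist1h4f (0.08 ± 0.12), Hist1h4h (0.04 ± 0.07) and Hist1h4i (-0.01 ± 0.20) lay within the same range, and Hist1h4d and Hist1h4i were picked after their values were seen. The type medians were 0.02, 0.14 and -0.11 in experiments 18, 19 and 20.

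The level of most histone genes was also highest in experiment 20. Among Dicer fx/fx samples that of experiment 20 was the highest for 25 of 31 members, 80.6% against 35.8% of all genes. Among Dicer -/- samples that of experiment 20 was the highest for 19 members, 61.3% against 35.7% of all genes. The Dicer -/- sample of experiment 20 lay above the mean of the other 2 by a median of 0.18 (log2), and the control of experiment 20 lay above its counterparts by 0.30. Over all genes these medians were -0.01 and -0.02. The step was larger for the 7 genes outside the Hist1 cluster, at 0.50 in Dicer -/- and 0.76 in Dicer fx/fx samples, against 0.15 and 0.25 for the 24 Hist1 genes. It differed by type: H2A genes had -0.01 in Dicer -/- and 0.25 in Dicer fx/fx samples, H1 genes 0.11 and 0.04, H2B genes 0.28 and 0.40, H3 genes 0.20 and 0.15, and H4 genes 0.18 and 0.30. Of the 5 H1 genes 2 were highest in experiment 20 in either group, and of the 6 H2A genes 2 in Dicer -/- and 5 in Dicer fx/fx samples. The streak and endoderm markers given above were also highest in experiment 20, and their part in this step was not tested.

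The Hist1 genes were also set out in the order of RefSeq. Within the cluster 10 pairs of members stood directly beside each other, and 6 of these pairs had the same sign in experiment 20. Whether neighbours shared a sign more or less often than other pairs was not tested. Hist1h2ac and Hist1h2bc were such a pair, at 0.83 and 0.94 in experiment 20, but in experiment 19 they were at -0.56 and 0.03. Hist1h2ae and Hist1h2bg are transcribed away from each other and share upstream DNA, and in experiment 20 they were at -0.10 and 0.48. The germline pair Hist1h2ba and Hist1h2aa, also divergent, had -0.27 and -0.12 in experiment 20 and 0.16 and 0.25 in experiment 19. Hist1h1t stood between Hist1h2bc and Hist1h4c and had -0.34 in experiment 20, while Hist1h2bc was at 0.94.

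**Figure D3:**
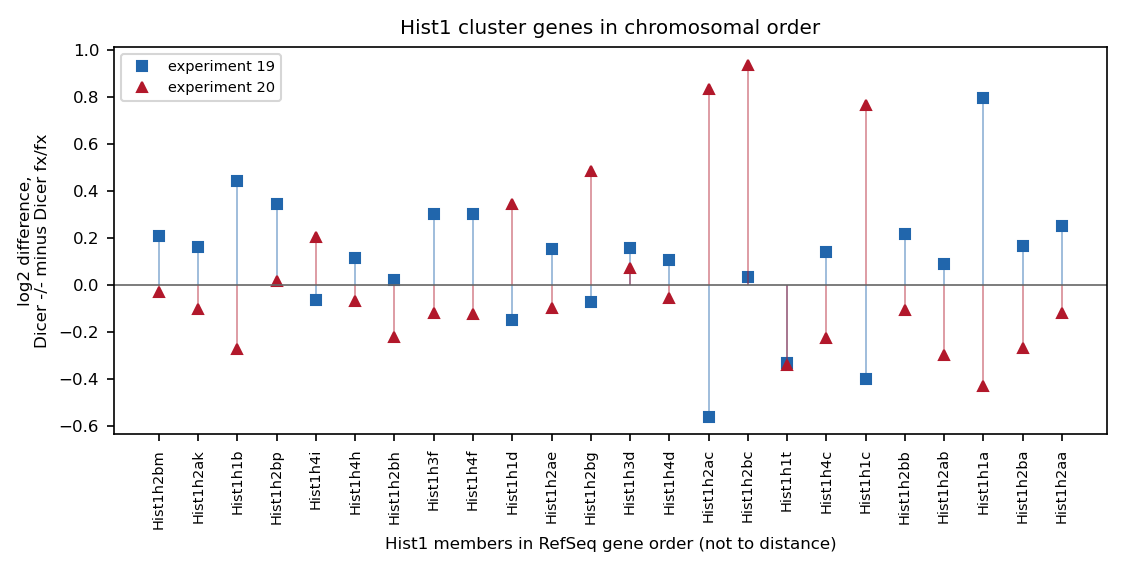
Log2 difference of Dicer -/- minus Dicer fx/fx (y axis) for the 24 Hist1 genes in their RefSeq order on chromosome 13 (x axis, not to distance), with squares for experiment 19 and triangles for experiment 20. The highest triangles are those of Hist1h2bc at 0.94 and Hist1h2ac at 0.83, which stand side by side, and Hist1h1c at 0.77 stands between genes below 0.

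Upstream sequences are shown for an H1 pair (Hist1h1c and Hist1h1a) and an H2B pair (Hist1h2bg and Hist1h2bb) whose members went opposite ways in experiments 19 and 20, and for Hist1h2ac, the H2A gene that differed most between experiments. Each is the 150 bases before the RefSeq start site, 5′ to 3′ on the gene's strand, in build GRCm38.p6, and capitals mark the motifs searched.
Hist1h1c, chr13:23738657-23738806, plus strand: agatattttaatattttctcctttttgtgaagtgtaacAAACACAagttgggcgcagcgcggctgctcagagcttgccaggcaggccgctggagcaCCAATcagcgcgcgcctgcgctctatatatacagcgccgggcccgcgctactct
Hist1h1a, chr13:23763518-23763667, plus strand: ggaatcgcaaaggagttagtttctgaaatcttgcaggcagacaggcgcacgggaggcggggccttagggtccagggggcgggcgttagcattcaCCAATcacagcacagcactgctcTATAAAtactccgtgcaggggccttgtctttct
Hist1h2ac, chr13:23683960-23684109, minus strand: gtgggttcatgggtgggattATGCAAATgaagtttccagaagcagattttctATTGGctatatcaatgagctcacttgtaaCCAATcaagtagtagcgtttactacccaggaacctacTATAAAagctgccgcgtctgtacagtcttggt
Hist1h2bg, chr13:23571250-23571399, plus strand: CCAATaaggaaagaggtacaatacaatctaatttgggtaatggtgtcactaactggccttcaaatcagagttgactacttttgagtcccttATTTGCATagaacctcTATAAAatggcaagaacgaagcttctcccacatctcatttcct
Hist1h2bb, chr13:23746584-23746733, plus strand: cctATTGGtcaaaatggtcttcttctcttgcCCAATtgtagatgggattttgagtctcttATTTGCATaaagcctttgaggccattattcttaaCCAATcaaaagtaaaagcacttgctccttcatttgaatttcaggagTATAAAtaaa

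The motifs were the TATA box (TATAAA), the CCAAT box (CCAAT), the octamer of H2B promoters (ATTTGCAT), a site of POU factors, and the H1 box (AAACACA), each on both strands. Hist1h1c holds an H1 box and a CCAAT box, and Hist1h1a a CCAAT box and a TATA box. Hist1h2bg and Hist1h2bb, which differed by 0.48 and -0.11 in experiment 20, both hold an octamer, a CCAAT box and a TATA box, as does Hist1h2ac at 0.83. The places differ, with the TATA match at -43 to -38 in Hist1h2bg, -10 to -5 in Hist1h2bb and -32 to -27 in Hist1h2ac. Upstream sequence was found for 26 of the 31 members. Over the 250 bases before the start site, 16 of these 26 held the TATA box (61.5%, against 12.97% of 27025 promoters), 21 the CCAAT box (80.8% against 34.5%), 9 the octamer (34.6% against 1.61%) and 8 the H1 box (30.8% against 6.22%). The octamer stood in 5 of 7 H2B and 4 of 6 H2A windows and in 0 of 5 H1, 0 of 2 H3 and 0 of 6 H4 windows. Windows of divergent pairs overlap, by 179 bases for Hist1h2ae and Hist1h2bg and by 220 bases for Hist1h2ba and Hist1h2aa, so some matches were counted for both genes. A match is a run of letters and not a measured binding site.

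A further 41 probe sets name several genes with at least 1 clustered histone among them, and these were left out of the 31. Of them 36 had a mean log2 level above 13, and all intensities of these 36 were at least 10103. Their differences ran only from -0.08 to 0.13 in any experiment, with medians of 0.04, 0.05 and 0.00 in experiments 18, 19 and 20. The highest intensity of the 41 was 20418, where the highest value anywhere in the table was 25736, and how far so bright a probe set can still rise was not tested. The same limit applies to the 2 of the 31 members above log2 level 13, Hist2h2ab and Hist1h4d, whose differences ran from -0.06 to 0.15. The 5 dimmer probe sets of the 41 ran from -0.16 to 0.40. The H1.4 gene Hist1h1e was measured only in a probe set shared with Hist1h2be, at -0.01, 0.06 and 0.23.

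Large single-experiment changes were few. At least 1.5-fold higher in Dicer -/- cells were 0 members in experiment 18 (1.02% of all genes), 1 in experiment 19, Hist1h1a (1.09%), and 4 in experiment 20, namely Hist1h1c, Hist1h2ac, Hist1h2bc and Hist2h3c2-ps (3.82%). At least 1.5-fold lower were 0 members in each, where the shares of all genes were 0.0495%, 0.842% and 1.67%. The 4 genes in experiment 20 were 12.9% of the members.

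The genes that make and use histone mRNA were compared through lists. Of 22 measured genes for transcription and 3′ end formation of histone mRNA 0 rose and 0 fell, with medians of -0.02, 0.02 and -0.14 in experiments 18, 19 and 20. Slbp had 1398, 1737 and 2047 in Dicer -/- cells, against 1415, 1290 and 2678 in Dicer fx/fx cells, so its differences of -0.02, 0.43 and -0.39 had the signs of Hist1h1a in experiments 19 and 20, and the control of experiment 20 was again the highest. Casp8ap2, which encodes the processing factor FLASH, was at -0.03, 0.34 and -0.25, and Npat at -0.04, 0.31 and 0.09. Upf1, a helicase that takes part in histone mRNA decay in human cells, had 1713, 1769 and 1609 in Dicer -/- cells, against 1930.4, 1990.1 and 1961 in Dicer fx/fx cells. Its groups did not overlap, at a mean difference of -0.21 ± 0.06 (limma adjusted p = 0.824). Mif4gd, a partner of SLBP in translation, was at -0.25 ± 0.13, the scaffold gene Sympk at -0.08 ± 0.06 and the 3′ exonuclease gene Eri1 at 0.12 ± 0.10.

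Among 14 replacement histone genes 0 passed in either direction, with medians of -0.10, -0.13 and -0.04. In all 3 experiments 6 were lower (28.3% of all genes were) and 2 higher (15.2% of all genes were). Of the 14, 11 were at or above the median level of all genes. The dim H1foo, Hils1 and H1fnt were under it and were among the 6. Of the 10097 genes at or above that level 2186 were lower and 2355 higher in all 3 experiments. H2afx, whose product H2AX is phosphorylated at DNA breaks, had 1827, 1570 and 2416 in Dicer -/- cells, against 2429, 3014 and 3005 in Dicer fx/fx cells. Every Dicer -/- sample lay below every control, by -0.41, -0.94 and -0.31 within experiments, a mean of -0.56 ± 0.18 with a limma adjusted p of 0.824. With the block its adjusted p was 0.201 over all 3 experiments and 0.0452 without experiment 20, a setting where 388 of 20193 genes passed. In the same fit without experiment 18, and without experiment 19, 0 of all genes passed. Cenpa, the H3 variant of centromeres, was at -0.30 ± 0.16. H1f0, which encodes the linker histone H1.0 of slowly dividing cells, had the signs -0.14, 0.12 and 0.45. H3f3a (0.01 ± 0.09), H3f3b (0.07 ± 0.10) and H2afz (0.02 ± 0.26) lay near 0, and the spermatid genes H1fnt (-0.20 ± 0.07) and Hils1 (-0.18 ± 0.07) had an adjusted p of 0.824 and 0.831.

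Histone chaperones and S-phase genes had the sign order of the clustered histones in experiments 19 and 20. Of 14 chaperone genes 13 were higher in experiment 19 (38.5% of all genes were) and 10 lower in experiment 20 (57.4% of all genes were), with medians of -0.01, 0.09 and -0.16 in experiments 18, 19 and 20, and 0 passed. Daxx was at -0.19 ± 0.19, Ssrp1 at 0.07 ± 0.12, Nap1l1 at 0.06 ± 0.06 and Cabin1 at -0.05 ± 0.08. Of 22 S-phase genes 18 were higher in experiment 19 and 18 lower in experiment 20, with medians of 0.13, 0.12 and -0.15, and 0 passed. All 14 chaperone genes and all 22 S-phase genes were at or above the median level of all genes. Of the 10097 genes at that level 4899 were higher in experiment 19 and 5213 lower in experiment 20. Pola1, for the catalytic subunit of DNA polymerase alpha, had 956, 1475 and 932 in Dicer -/- cells, against 620, 795 and 745 in Dicer fx/fx cells, a mean difference of 0.61 ± 0.21 (adjusted p = 0.831). With the block its adjusted p was 0.159 over all 3 experiments and 0.019 without experiment 20, where 388 of 20193 genes passed. Without experiment 18, and without experiment 19, 0 of all genes passed with the block. Lig1 was at 0.11 ± 0.07, Rrm1 at 0.14 ± 0.08 and Rfc1 at -0.14 ± 0.10. The same order held for the medians of the primed markers, at 0.15 in experiment 19 and -0.52 in experiment 20, and of the streak and endoderm markers, at 0.29 and -0.32. The part of these lists and markers in the histone values was not tested.

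**Figure D4:**
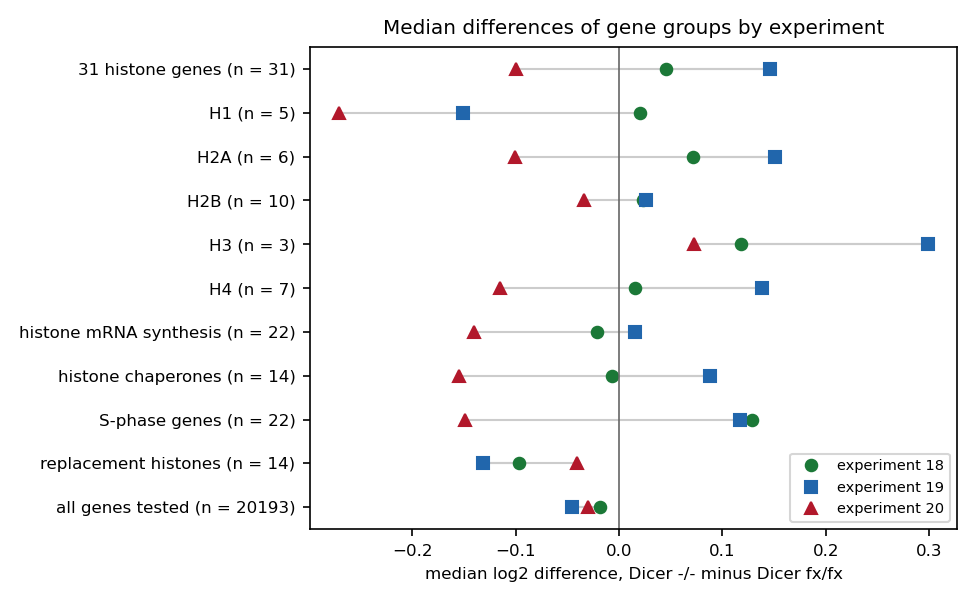
Median log2 difference of Dicer -/- minus Dicer fx/fx (x axis) for gene groups (rows, with the number of genes measured), with a circle for experiment 18, a square for 19 and a triangle for 20. The medians of the 31 histone genes, the chaperones and the S-phase genes are above 0 in experiment 19 and below 0 in experiment 20, and all genes lie near 0.

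Members also differed in how far they shared a profile over the 6 arrays. Set against the mean of the other members, Hist2h4 had r = 0.97, Hist1h2bm 0.96 and Hist1h2bb 0.94, while Hist3h2bb-ps had r = -0.92 and Hist1h2ac r = -0.89. The mean profile itself was higher in both samples of experiment 20, at 0.21 in Dicer -/- and 0.16 in Dicer fx/fx cells on the centred log2 scale. The non-member genes with the profile most like it over the 6 arrays were Galk2 (r = 0.998), Tm7sf2 (0.997), Cd24a (0.994), Zmpste24 (0.994) and Cobll1 (0.993). These are descriptions over 6 arrays that share the step of experiment 20. Across the 31 members the differences of experiments 18 and 19 correlated with r = 0.18 (0.50 over all genes), those of 18 and 20 with r = 0.34 (0.35 over all genes) and those of 19 and 20 with r = -0.49 (0.26 over all genes). The Spearman coefficients over the members were 0.30, -0.01 and -0.39. The members share arrays and, for close copies, sequence.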

How the data were processed

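RNA of 6 EpiSC cultures was hybridised to Affymetrix MoGene 1.0 ST arrays, and the values were made by RMA in Affymetrix Expression Console 1.2, per the submitters' processing notes. For each array the deposited table holds a column headed raw and a column headed normalized. The raw columns were read as linear intensities and the normalized columns as log2 values. Centred on each probe set's median, log2 of the raw columns matched the normalized columns to within 2.3e-06. Array medians of the deposited intensities lay between 247.7 and 260.1, and the number of arrays limits the precision.

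From 28856 probe sets, the 22439 with 1 symbol gave 20193 genes after the brightest probe set of each gene was kept, and 9 probe sets with several gene IDs were left out. The deposited log2 values are centred on each probe set's median, so log2 of the intensity was used. The test was limma's moderated test (version 3.58.1, R 4.3.3) of Dicer -/- against Dicer fx/fx with no other term, adjusted by Benjamini-Hochberg over all genes at a threshold of 0.05. The p-values measure the spread between these 3 experiments. The labels put both samples of an experiment together, so the numbers pair the samples, and deviations from the group means correlated with r = 0.83, 0.61 and 0.80 over all genes in experiments 18, 19 and 20. A fit with the experiment as a block was therefore an alternative. On simulated data of 20193 genes the fit for Dicer -/- minus Dicer fx/fx recovered 22% of genes changed by 0.6 (log2) and 78.8% of those changed by 1.7, and 39% and 89.4% with the block. The simulated arrays held many changed genes, which eases the adjusted threshold, and noise that was independent between genes. In the real data only Dicer1 passed, so these rates can overstate what the fits recover here.

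Named genes were, for each histone type, the 4 with the smallest p and the 2 with the largest difference, every member outside the Hist1 cluster, the germline members, the largest difference opposite to the type median, and from each companion list the 4 with the smallest p plus some regulators and replacement histones. The members and lists were chosen with earlier results of these data known. Alternatives covered scaling, array weights, filters, probe set choice and samples left out. Promoters are from RefSeq (GRCm38.p6) and were found for 26 of 31 members, and RefSeq was otherwise used for names and gene order.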

Additional observations from a re-analysis of the deposited data

How the results depend on the processing

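In 21 alternatives 0 of the 31 histone genes passed in either direction. The smallest adjusted p of a member was 0.068, for Hist2h3c2-ps with the experiment as a block and experiment 20 left out, where 388 of all genes passed. With the block the differences cannot change, since each experiment holds 1 sample of either kind, and only the SE and p do. The median over the histone genes was therefore 0.05 in both fits. The block changed no histone call. Among 25 named histone genes 503 of 518 values stayed within 1 SD over experiments. The block and some other alternatives leave the differences as they were, so part of that count was fixed in advance. The H3 median was 0.30 when genes under the median level were dropped, which leaves 2 H3 members. The H1 median was -0.125 with the block and experiment 19 left out, and -0.10 with the block and experiment 20 left out. Over samples or experiments left out in turn, the H1 median ran between -0.125 and 0.12, the median difference over type H2B between -0.0224 and 0.20, the median difference over type H3 between -0.0305 and 0.21 and the median of all 31 between -0.03, without the Dicer -/- sample of experiment 20, and 0.14, without the Dicer fx/fx sample of that experiment. Leaving out 1 sample leaves the 2 groups with different experiments. The histone level of experiment 20 was higher in both groups, by 0.18 in Dicer -/- and 0.30 in Dicer fx/fx samples. The part of this step in these ranges was not tested. Dicer1 passed by a small margin and did not pass with the block. With 3 arrays per group, differences as small as most of those seen here are not detectable.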
